A study of Mus musculus with 14 samples.

Results

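The genes described are 8 that handle dietary fructose and carry hexoses across membranes: the enzymes Khk, Glyctk, Tkfc and Sord and the facilitative transporters Slc2a2, Slc2a5, Slc2a8 and Slc2a9. They were chosen by name. The platform annotation gives a named probe to 16593 genes, 7 of the 8 among them, and these 7 have 16 of the 25697 probes on the array. Sord, which oxidises sorbitol to fructose, was not analysed here because none of the probes named here is its own. Livers came from male C57Bl/6J mice kept under specific-pathogen-free conditions. One group of 7 mice was fed a sucrose diet and another group of 7 an isocaloric diet with palatinose in its place, each mouse with an array of its own. The titles give 22 weeks on the diets, whereas the age label says 18 weeks, so the age at sampling is not settled. No further group entered the comparison.

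Sucrose and palatinose (isomaltulose) both consist of a glucose bound to a fructose, and digestion of either releases both sugars; palatinose is cleaved more slowly. In liver, ketohexokinase traps fructose as its phosphate, and after that phosphate is split, triokinase and glycerate kinase return glyceraldehyde and glycerate to glycolysis. Fructose and glucose enter and leave the hepatocyte mainly through GLUT2, the product of Slc2a2. The study's title places the diets in work on fatty liver, insulin resistance and the incretin GIP; for the genes here the question is whether the liver transcripts that receive fructose differed between sugars that release it at different rates.

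No gene of fructose handling or hexose transport passed the test between the diets. In a limma fit over 8829 features, 0 of the 6 members with a measurable probe had a Benjamini-Hochberg adjusted p under 0.05, where 0% of all features did. The smallest adjusted p of a member was 0.696. At an unadjusted p under 0.05 there were 2 members, Glyctk and Slc2a8, both higher with palatinose, beside 627 of all features (7.1%), a share that 2 of 6 genes are too few to be set against. The 2 sets of 7 arrays overlapped for every one of the 6 members, and they failed to overlap for 0.125% of all features. All differences below are log2 values of palatinose minus sucrose, levels are log2 intensities after background correction with an offset of 16 and quantile normalization, and intervals are 95% confidence intervals of the same fit. Of the 16 member probes 12 entered the fit, the requirement being detection (p under 0.05 against the negative controls) on 7 or more of 14 arrays. With every kept probe as a feature of its own, 0 of these 12 passed and 4 had an unadjusted p under 0.05, where 8.02% of all 11628 kept probes did. The median difference of the 6 tested members was 0.00, beside 0.01 over all features. In whole liver, fewer cells of a type and less RNA per cell cannot be told apart.

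Some arrays stood apart, and the tested probe of each tested member is given with and without them below. Each array is named by its column in the table, such as sucrose array SUC_424_02. Over 2061 genes with at least 2 kept probes, the deviations of the 2 brightest probes from their own means differed by more than 0.5 log2 for 19.0% of genes on SUC_424_02. On the other 13 arrays that share was 0.825% to 3.3%. The mean intensity of SUC_424_02 was 257, above the 190.2 to 214.9 of the others. Tissue and cell type markers were counted as detected at a detection p under 0.01, stricter than the 0.05 of the probe filter. On 5 further arrays at least 6 of the 9 measured skeletal muscle markers or of the 9 measured pancreatic acinar markers were detected: SUC_415_02 (both tissues), SUC_421_03 (pancreas), PAL_407_04, PAL_417_03 and PAL_429_03 (muscle). The summed intensity of the 9 muscle markers ran from -4 to 3837 with sucrose and from 1 to 6065 with palatinose, and that of the pancreatic markers from 1 to 4011 and from -2 to 37. Of 8 hepatocyte markers 5 or 6 were detected on each array, among them Ttr at 16052 or more and Apoa1 at 17976 or more, while the probes of Tat and Fgb were detected on 0 arrays and that of Alb on 1.

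Khk encodes ketohexokinase, the enzyme that commits fructose to breakdown, and lies at chr5:30921436-30931248 of GRCm38.p6. Its brighter probe, ILMN_2698564, measured a lowest, median and highest level of 11.17, 11.68 and 12.20 with sucrose and 11.38, 11.83 and 12.02 with palatinose. The ranges lay over each other, with the lowest array of all being SUC_424_02. The difference was 0.01 (-0.28 to 0.31, adjusted p = 0.986), which bounds the fold of palatinose over sucrose between 0.823 and 1.24. The second probe, ILMN_2725617, averaged 11.40 ± 0.29 in the sucrose mice and 11.30 ± 0.22 in the palatinose mice (SD, n = 7 each) and differed by -0.10 (-0.36 to 0.16; limma adjusted p = 0.861 in a fit over all 11628 kept probes). On this probe SUC_424_02 was not low but at 11.64, above the mean of 11.36 of the other 6 sucrose arrays.

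Without SUC_424_02 both Khk probes gave a value just below 0, at -0.08 and -0.06. Without the 5 arrays with muscle or pancreas transcripts, which left 5 sucrose and 4 palatinose arrays, the brighter probe gave +0.22 (-0.13 to 0.56) and the other +0.05. None of these values passed the test; the part of the other tissues in the shift was not tested.

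**Figure D1:**
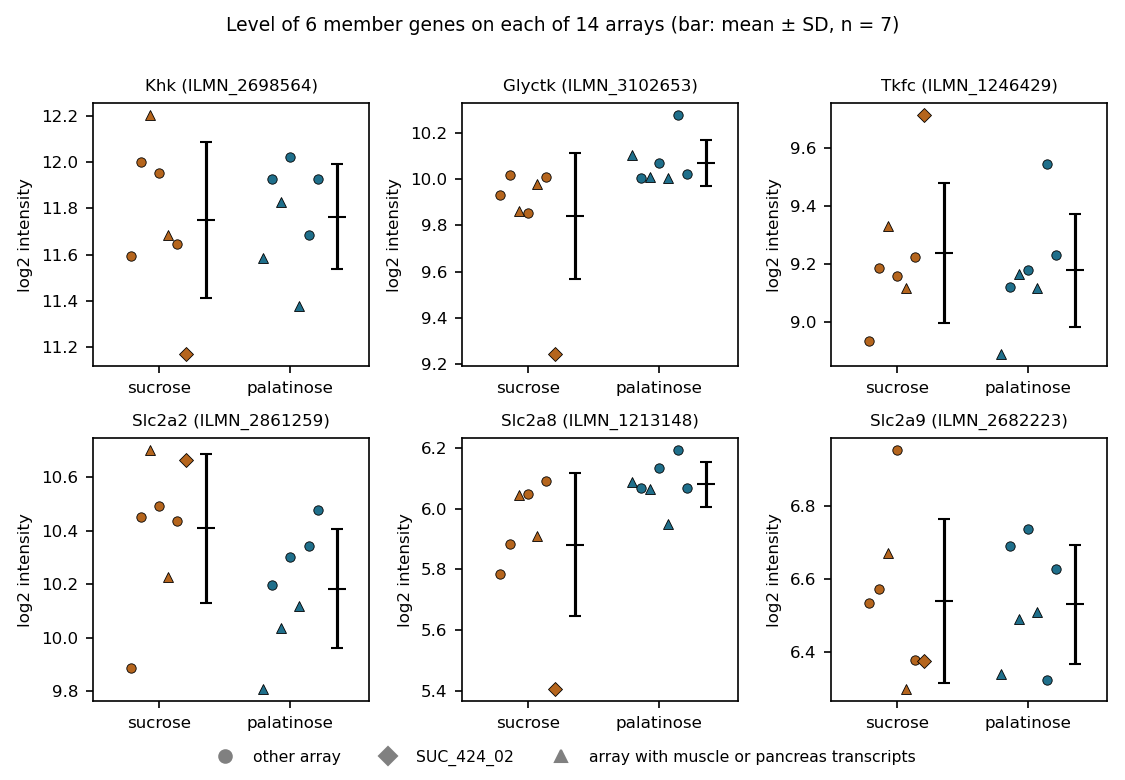
Log2 intensity of the tested probe of 6 member genes (one panel each) on the 7 sucrose and 7 palatinose arrays, with the mean ± SD of each diet as a bar; diamonds mark SUC_424_02 and triangles the 5 arrays with muscle or pancreas transcripts. The diamond is the lowest point for Khk, Glyctk and Slc2a8 and the highest for Tkfc, and the diets overlap in every panel.

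The genes of the later steps follow. Tkfc, for triokinase, which phosphorylates glyceraldehyde, lies at chr19:10592197-10605482 and has 1 probe, ILMN_1246429. Its level ran from 8.94 over a median of 9.19 to 9.71 with sucrose and from 8.89 over 9.17 to 9.54 with palatinose. The highest array was SUC_424_02, followed by PAL_430_01. The diets did not differ beyond the spread (-0.06, -0.29 to 0.17, limma adjusted p = 0.917), and without SUC_424_02 the value was 0.02.

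Glyctk, for the glycerate kinase that phosphorylates glycerate, lies at chr9:106152859-106160158, and its 3 probes did not share a direction. The brightest, ILMN_3102653, ran from 9.24 over a median of 9.93 to 10.02 with sucrose, and with palatinose its median was 10.02 and its highest value 10.28. The lowest palatinose arrays overlapped with the highest sucrose arrays. All 7 palatinose arrays lay above the sucrose mean, and SUC_424_02 lay far below every other array, the rest of which began at 9.85. The difference was 0.23 (0.01 to 0.45, unadjusted p = 0.0444, adjusted p = 0.696 by limma; exact two-sided permutation p = 0.00583 over 3432 splits, unadjusted), and 0.13 (0.00 to 0.26) without SUC_424_02.

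The other Glyctk probes gave 0.13 (-0.06 to 0.32) for ILMN_1218287 and -0.25 (-0.44 to -0.05, limma adjusted p = 0.570 in the probe fit) for ILMN_3029434. The latter is dim, with intensities of 10 to 25, so the offset of 16 draws its difference toward 0. On it all 7 palatinose arrays lay below the sucrose mean. Probes annotated to the same gene therefore had intervals on opposite sides of 0, and averaging the 3 probes gave 0.04. Without the 5 arrays with muscle or pancreas transcripts the probes gave 0.28 (-0.05 to 0.62), 0.16 (-0.07 to 0.40) and -0.21 (-0.47 to 0.05), from the brightest to the dimmest. With the probes at odds, no direction is given for Glyctk.

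**Figure D2:**
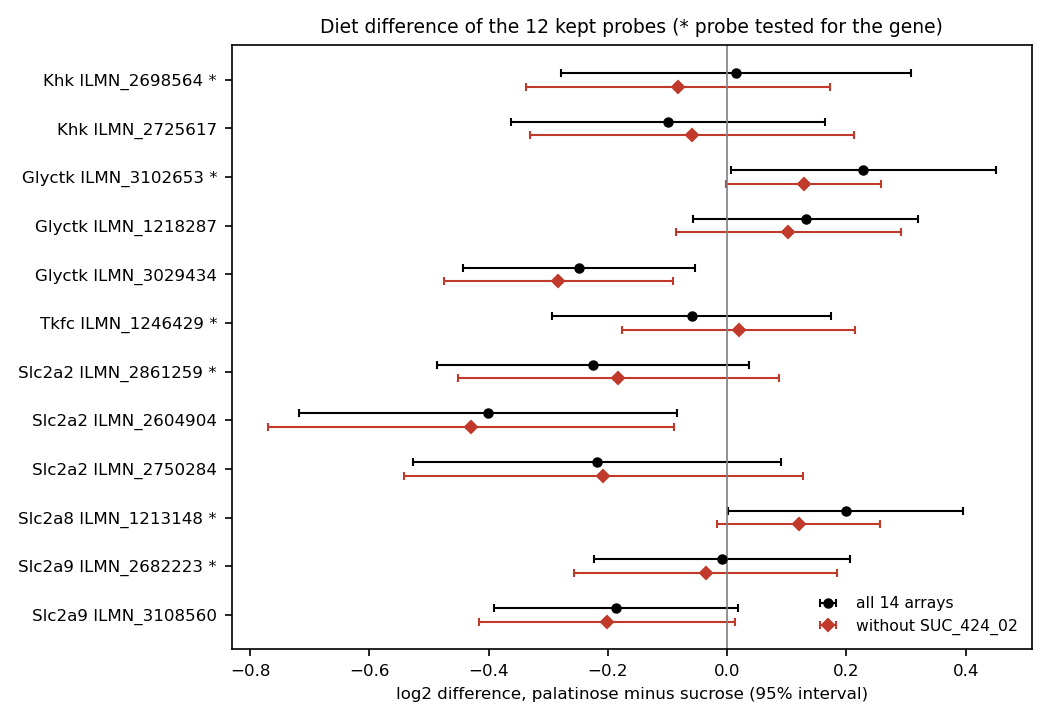
Difference of palatinose minus sucrose on the log2 scale for the 12 kept probes of 6 member genes, with 95% intervals, over all 14 arrays (black) and without SUC_424_02 (red diamonds). The 3 Slc2a2 probes lie between -0.43 and -0.18 in both settings, and the Glyctk probes lie on both sides of 0.

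Slc2a2 encodes GLUT2, the low-affinity carrier of glucose, galactose and fructose in the hepatocyte membrane, and lies at chr3:28697903-28728361. Its 3 probes were all lower with palatinose, and none passed. The brightest, ILMN_2861259, ran from 9.89 over a median of 10.45 to 10.70 with sucrose and from 9.81 over 10.20 to 10.48 with palatinose. Of the palatinose arrays 6 of 7 lay below the sucrose mean, but the lowest sucrose array, SUC_408_02, lay below 6 of the 7 palatinose arrays, and the 3 lowest palatinose arrays were the 3 with muscle transcripts. The difference was -0.22 (-0.49 to 0.04, adjusted p = 0.722 by limma; exact permutation p = 0.122), a fold of 0.856 with an interval of 0.713 to 1.03.

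The probe ILMN_2604904 averaged 7.94 ± 0.36 in the sucrose mice and 7.54 ± 0.27 in the palatinose mice (SD, n = 7 each) and differed by -0.40 (-0.72 to -0.08; limma unadjusted p = 0.0163, adjusted p = 0.570 in the probe fit). The probe ILMN_2750284 gave -0.22 (-0.53 to 0.09). Probes of a gene measure the same RNA in the same mice, so 3 lower values are not 3 separate results. Without the 5 arrays with muscle or pancreas transcripts the values were -0.06, -0.36 and -0.22 in the order of the probes above, and without SUC_424_02 they were -0.18, -0.43 and -0.21.

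Slc2a8, for GLUT8, a hexose carrier held mostly on internal membranes, lies at chr2:32972981-32982083. Its detected probe, ILMN_1213148, ran from 5.41 over a median of 5.91 to 6.09 with sucrose and from 5.95 over 6.07 to 6.19 with palatinose. All 7 palatinose arrays lay above the sucrose mean, to which SUC_424_02 contributed the lowest value of all. The difference was 0.20 (0.00 to 0.40, unadjusted p = 0.0477, adjusted p = 0.696 by limma; exact permutation p = 0.0227, unadjusted), and 0.12 (-0.01 to 0.25) without SUC_424_02. Without the 5 arrays with muscle or pancreas transcripts the difference was 0.27 (-0.02 to 0.56). Intensities of this probe were 34 to 58, so that the offset narrows the difference. Of its other probes one was detected on 6 arrays and one on 0, so neither was tested.

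Slc2a9, for GLUT9, which carries urate, lies at chr5:38349272-38503147. Its brightest probe, ILMN_2682223, ran from 6.30 over a median of 6.53 to 6.95 with sucrose and from 6.32 over 6.51 to 6.74 with palatinose, a difference of -0.01 (-0.22 to 0.21, limma adjusted p = 0.991). A dim probe annotated to another RefSeq transcript of the gene, ILMN_3108560, was detected on 7 sucrose and 5 palatinose arrays and gave -0.19 (-0.39 to 0.02). ILMN_2682223 gave -0.04 (-0.26 to 0.18) without SUC_424_02 and 0.03 (-0.26 to 0.33) without the 5 arrays with muscle or pancreas transcripts. In the same order ILMN_3108560 gave -0.20 and -0.10. The remaining probe was detected on 3 arrays and was not tested.

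Slc2a5, for the fructose-specific carrier GLUT5 of the intestinal brush border, lies at chr4:150119344-150144168, and its 1 probe was detected on 0 of 14 arrays. Intensities ran from -7 to 4, with detection p-values of 0.168 to 0.972, so no difference is given. On SUC_421_03, where 4 of 5 measured intestinal epithelium markers were detected at p under 0.01, it stood at 1. No other array detected any of those markers at that threshold. A probe without signal does not show that the transcript was absent.

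Which probes of a gene agreed across mice was examined on deviations from the diet mean. Of 8 pairs of kept probes, 1 passed by Pearson's r and 2 by Spearman's rho at a Benjamini-Hochberg adjusted permutation p under 0.05. By both measures this was the pair ILMN_2604904 and ILMN_2750284 of Slc2a2 (Pearson r = 0.91, permutation p = 4e-05, adjusted 0.00032; Spearman rho = 0.85, permutation p = 0.0005, adjusted 0.004). Its r was 0.87 with the 2 arrays farthest from the median left out, here SUC_421_03 and PAL_430_04. These 2 arrays were chosen anew for each pair, on the values of its first member only. By rho alone it was also ILMN_2861259 with ILMN_2750284 of Slc2a2 (rho = 0.69, adjusted permutation p = 0.042; r = 0.62, adjusted 0.129), which had r = 0.58 and rho = 0.53 without the 2 farthest arrays (adjusted permutation p = 0.172 and 0.239). The pair of Khk probes had r = 0.47 and rho = 0.57 over 14 arrays (permutation p = 0.126 and 0.0504, adjusted 0.167 and 0.122). Without SUC_424_02 the Khk pair had r = 0.88 (permutation p = 6e-05, adjusted 0.00024), so the low value over all arrays rests on that array. The 2 dimmer Glyctk probes had r = -0.44 (permutation p = 0.146, adjusted 0.167) and -0.65 without SUC_424_02 (adjusted permutation p = 0.0633).

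**Figure D3:**
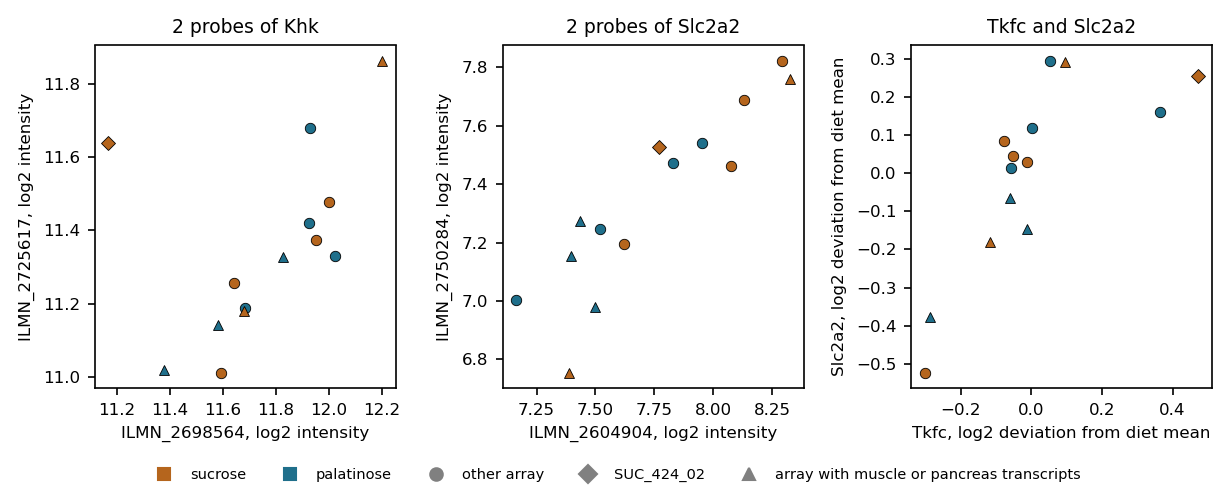
Left and centre, log2 intensity of 2 probes of Khk and of 2 probes of Slc2a2 on each array; right, deviations of Tkfc and Slc2a2 from their diet means in log2. Colours give the diet, the diamond is SUC_424_02, and triangles are the arrays with muscle or pancreas transcripts. The Khk probes follow each other except on SUC_424_02, where they stand at 11.17 and 11.64.

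Whether members varied together from mouse to mouse was examined for all 15 pairs of the 6 tested genes. Over 14 arrays 0 pairs passed by Pearson's r at an adjusted permutation p under 0.05, 4 had an unadjusted p under 0.05, and r ran from -0.50 to 0.83. By Spearman's rho 1 pair passed, Tkfc with Slc2a2: rho = 0.85 (permutation p = 0.00048, adjusted 0.0072) and r = 0.77 (permutation p = 0.00518, adjusted 0.0777). This pair had r = 0.79 in the sucrose mice (exact p = 0.0504) and 0.73 in the palatinose mice (exact p = 0.0685), neither passing after adjustment over the 15 pairs. It had r = 0.79 without SUC_424_02 and 0.92 without both SUC_424_02 and PAL_430_01, the arrays farthest from the median of Tkfc. Without the 5 arrays with muscle or pancreas transcripts it had r = 0.71 and rho = 0.72 over 9 arrays (permutation p = 0.115 and 0.0442, adjusted 0.432 and 0.307), so the call by rho was lost.

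Without SUC_424_02, 5 of the 15 correlations changed sign. Khk with Glyctk went from 0.48 to -0.28, and Glyctk with Tkfc from -0.50 to 0.40. Glyctk with Slc2a8, the highest r over all arrays at 0.83 (permutation p = 0.0282, adjusted 0.106; rho = 0.61, adjusted 0.103), went to 0.24. Khk with Slc2a9 had 0.64 with that array and 0.63 without it (adjusted permutation p = 0.106 and 0.0859). Khk with Slc2a2 went from 0.29 to 0.67 (adjusted permutation p = 0.528 and 0.0790). Glyctk with Slc2a9 went from -0.02 to -0.66, the lowest r without that array (adjusted permutation p = 0.953 and 0.0666).

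**Figure D4:**
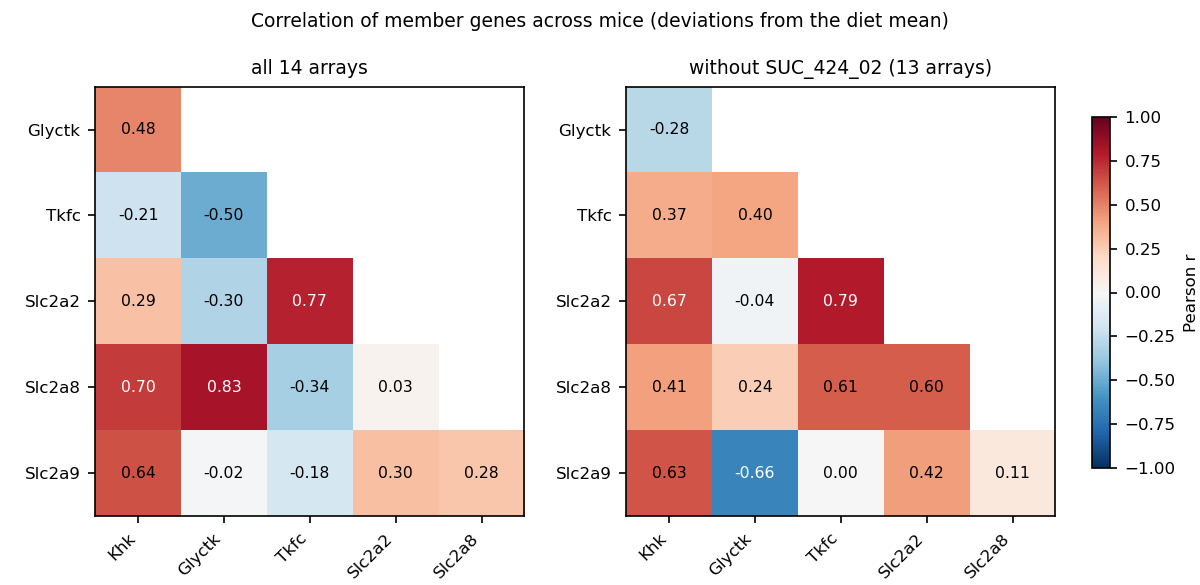
Pearson r of each pair of member genes over deviations from the diet mean, for all 14 arrays (left) and without SUC_424_02 (right); red is positive and blue negative. Tkfc with Slc2a2 has 0.77 and 0.79, and Glyctk with Slc2a8 drops from 0.83 to 0.24.

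Promoter sequence from RefSeq, matched by symbol for all 8 members, is shown for Tkfc and Slc2a2, the pair that varied together by rank, and for Khk, the entry enzyme. Each run holds the 250 bases before the start site that the RefSeq table uses on GRCm38.p6, read in the direction of the gene. Khk is chr5:30921309-30921558 on the plus strand, Tkfc chr19:10604259-10604508 on the minus strand and Slc2a2 chr3:28697653-28697902 on the plus strand. The Khk window lies in part, and the Tkfc window wholly, inside the annotated span of its gene. Those of Glyctk and Slc2a9, not shown, also lie wholly inside. Other transcripts of these genes start further upstream. Capitals mark matches, on either strand, to the E-box CACGTG (from which carbohydrate response elements are built), the TATA box TATAAA, the GC box GGGCGG or the CCAAT box; in these runs no match overlaps another.
Khk: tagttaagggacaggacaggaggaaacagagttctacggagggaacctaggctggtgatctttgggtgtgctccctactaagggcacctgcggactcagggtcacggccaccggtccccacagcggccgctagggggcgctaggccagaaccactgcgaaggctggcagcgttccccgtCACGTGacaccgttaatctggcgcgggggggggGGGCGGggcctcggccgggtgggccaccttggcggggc
Tkfc: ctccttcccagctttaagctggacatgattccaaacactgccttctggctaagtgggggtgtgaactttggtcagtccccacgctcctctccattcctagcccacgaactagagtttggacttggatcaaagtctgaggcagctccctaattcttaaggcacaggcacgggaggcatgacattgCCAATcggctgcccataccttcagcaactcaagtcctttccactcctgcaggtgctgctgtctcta
Slc2a2: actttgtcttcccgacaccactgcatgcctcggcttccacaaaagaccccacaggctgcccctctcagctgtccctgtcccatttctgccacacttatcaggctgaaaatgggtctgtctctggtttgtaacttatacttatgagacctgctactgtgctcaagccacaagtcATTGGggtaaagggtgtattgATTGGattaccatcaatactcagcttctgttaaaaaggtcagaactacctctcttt
Of the 8 members, Khk alone had a CACGTG in this window, 71 bases before the start, as had 6.02% of the 32851 promoters in the table. The Khk window also held GGGCGG, as did 32.7% of promoters. Tkfc had CCAAT 66 bases before the start and Slc2a2 its reverse complement 77 and 56 bases before. The motif was not particular to this pair. On either strand, Glyctk had it 226 bases before the start and Slc2a8 198, 148, 145 and 39 bases before. It was found in 33.8% of promoters. None of the 8 had TATAAA (12.4% of promoters). A match is a run of letters, not a shown binding site.

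By likeness over the 14 arrays, measured as Pearson r of deviations from the diet mean against 8145 named genes, the 3 genes nearest to Slc2a2 were Ndufs8 (0.90), Ciapin1 (0.90) and Pklr (0.89), which had 0.93, 0.89 and 0.88 without SUC_424_02. Nearest to Khk were Trap1 (0.92), Hdac11 (0.92) and Dtymk (0.92), with 0.88, 0.88 and 0.87 without that array. Nearest to Slc2a9 were Gstt1 (0.87), Krt82 (0.86) and Pcca (0.82), with 0.86, 0.86 and 0.81. Nearest to Tkfc were Rtcb (0.93), Mafg (0.90) and Pgrmc1 (0.89), with 0.87, 0.81 and 0.80. Lists for the remaining members leaned more on SUC_424_02. For Glyctk, Atp6v0d1, Ndufv3 and Mrpl28 had 0.96 each and 0.76, 0.75 and 0.74 without it. For Slc2a8, Smarcd2, Nt5c and Timm50 had 0.93, 0.91 and 0.91, and 0.73, 0.72 and 0.66 without it. These genes were picked as the highest among all those compared, so the values describe them and carry no test.

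Of 39 further genes of sugar handling, 34 had a named probe and 21 were tested. Of these 21, 15 lay higher with palatinose, 6 lay lower, 0 passed and 1 had an unadjusted limma p under 0.05. Over all 8829 features 4838 lay higher and 3991 lower, and 627 (7.1%) had an unadjusted p under 0.05. Counts of such short lists are not read as a lean toward either diet. Among neighbours in fructose breakdown and the polyol pathway 6 of 9 were tested, with 5 higher, 1 lower, 0 passing and a median of 0.05. The aldolase gene Aldoc averaged 6.13 ± 0.40 in the sucrose mice and 6.44 ± 0.20 in the palatinose mice (SD, n = 7 each; difference 0.31, -0.02 to 0.63), Grhpr, for a reductase of glyoxylate and hydroxypyruvate, differed by 0.13 (-0.04 to 0.31) and the aldehyde dehydrogenase gene Aldh2 by 0.05 (-0.09 to 0.18).

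Among hexokinases and their regulator 3 of 6 were tested, with 3 values above 0 and 0 passing. Hk2 averaged 5.59 ± 0.33 in the sucrose mice and 6.05 ± 0.59 in the palatinose mice (SD, n = 7 each) and differed by 0.46 (-0.02 to 0.93, limma adjusted p = 0.705). Hexokinase 2 is the form of muscle and fat, and 3 palatinose arrays and 1 sucrose array held muscle transcripts, whose part in this value was not tested. Hk3 gave 0.13 (-0.26 to 0.51) and Gckr, the regulator in this list, 0.00 (-0.18 to 0.19). Among other sugar transporters 4 of 12 were tested, 3 higher, 1 lower and 0 passing: Slc2a10 gave 0.12, Slc2a6 0.19 and Slc2a1, for GLUT1, -0.08 (-0.28 to 0.11).

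Urate handling, to which Slc2a9 also belongs, had 3 of 6 genes tested, 1 higher, 2 lower and 0 passing. Slc17a3, for an organic anion and urate transporter, averaged 7.34 ± 0.18 in the sucrose mice and 7.04 ± 0.16 in the palatinose mice (SD, n = 7 each) and differed by -0.29 (-0.49 to -0.10, limma unadjusted p = 0.00537, adjusted p = 0.604). Uox, for the urate oxidase that mice keep, gave -0.17 (-0.37 to 0.04) on its brightest probe and 0.12 on its other, and Xdh, whose enzyme makes urate, 0.04 (-0.10 to 0.17). Of the sugar sensors and their targets 5 of 6 were tested, 3 higher, 2 lower and 0 passing. Mlx, the partner of ChREBP, gave 0.18 (-0.01 to 0.37), Mlxipl, for ChREBP itself, 0.05 (-0.23 to 0.32), Txnip 0.09 (-0.24 to 0.42) and Arrdc4 -0.06 (-0.26 to 0.13). Pklr gave -0.13 (-0.52 to 0.26) on its brightest probe and 0.04 on its other kept probe.

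**Figure D5:**
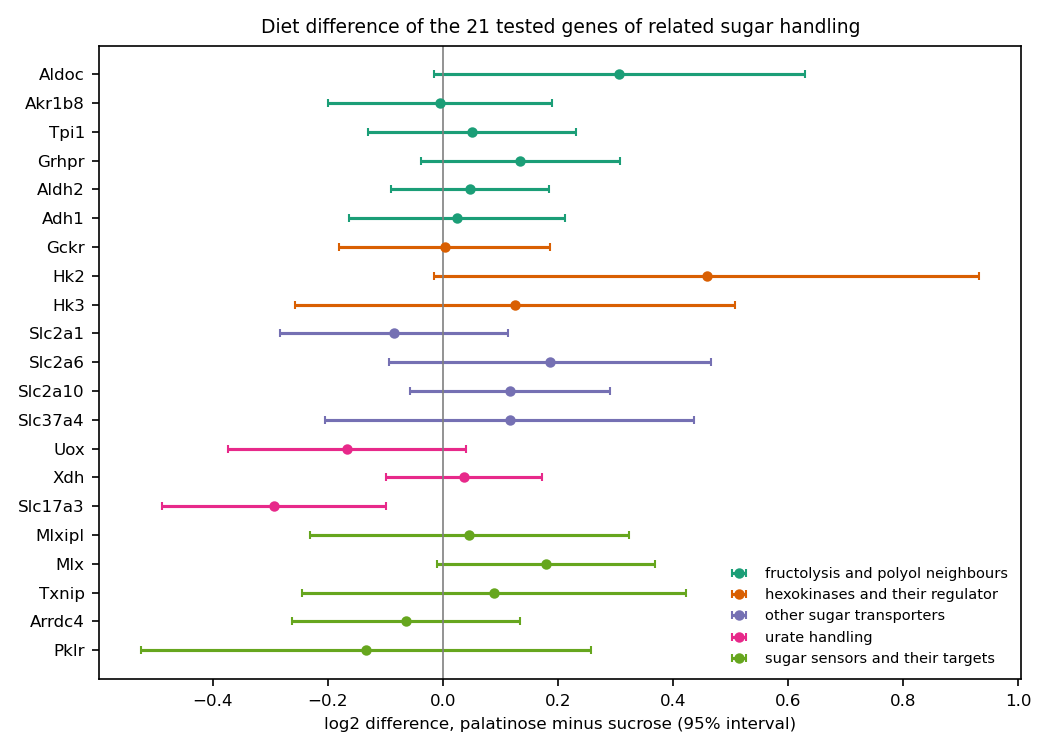
Difference of palatinose minus sucrose on the log2 scale with 95% intervals for the 21 tested genes of related sugar handling, coloured by list. The interval of 1 gene, Slc17a3, lies wholly below 0, and no gene passed after adjustment over all features.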

How the data were processed

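Liver RNA of the 14 mice was hybridised to Illumina MouseRef-8 v2 arrays; per the labels' protocols it was purified on RNeasy columns with DNase and biotin-labelled with the TotalPrep kit. Intensities in the deposited table without normalization are on a linear scale and had background subtracted (23.0% to 26.4% of values per array lie below 0). The deposited table also gives a detection p-value per probe and array, per the file headers. The authors' table holds intensities normalized between arrays by a method not given in the sources used here; it served as an alternative. Columns of the non-normalized table carry the diet and a code that no label explains, but no replicate number. In 2 cases several arrays share a code: SUC_417_01 with PAL_417_02 and PAL_417_03, and PAL_430_01 with PAL_430_04. The consensus correlation within a code was 0.36. The main fit and the permutations took all 14 arrays as independent, and the code entered only as an alternative.

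Intensities were processed with neqc of limma 3.58.1 (R 4.3.3), with the offset and filter given above. The kept probe with the highest mean stood for a gene; unnamed kept probes were tested by themselves. Probes were named by the platform annotation, with symbols checked through RefSeq (16 probes had no match). Diets were compared with lmFit and eBayes, two-sided, with no covariate; every kept probe was also fitted as its own feature. Correlations have permutation p-values from 100000 resamples within diet, or exact ones over 5040 orders within a diet. On arrays the number of samples limits the precision. In simulated data with the size and spread of this comparison (8829 features, drawn independently), 6.20% of genes changed by 0.2 log2, 57.0% by 0.4 and 89.0% by 0.6 were called. Changes of 0.2, 0.4, 0.6 and 1 log2 were planted together, 500 of each over all simulated sets. Strong changes loosen the Benjamini-Hochberg threshold for weaker ones. In the data no feature passed, so these shares can overstate what this comparison would call.

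Members and lists were chosen with earlier results of these data known. Named genes are the members, up to 3 per related list by smallest p, Mlxipl and Txnip, and the 3 nearest genes by correlation. Same-numbered samples of the 2 diets did not deviate together (correlations of -0.19 to 0.17), so the numbers were not taken as pairs. Alternatives covered background, offset, normalization, filter, probe choice, fit settings, blocks and left-out arrays.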

Additional observations from a re-analysis of the deposited data

Results flagged for a closer look

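Dixon's ratio, the gap of the most extreme array to its neighbour over the range of its diet, was examined for 24 combinations of a kept member probe and a diet, and 2 passed the critical value of 0.568 for 7 samples. Chance alone flags about 5% of groups. The brightest Glyctk probe had a ratio of 0.786 in the sucrose mice, where SUC_424_02 measured 9.24 and the other 6 arrays 9.85 to 10.02. The same probe had a ratio of 0.636 in the palatinose mice, where PAL_430_01 was the highest at 10.28. SUC_424_02 lay outside the range of the other 13 arrays for 4 of the 12 kept member probes, below it for 3 and above it for 1.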

How the results depend on the processing

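No member and no related gene passed under any setting run, and adjusted p-values of the 6 tested members ran from 0.485 upward. Over the alternatives, some of which change the test and cannot move the difference, Glyctk ran from 0.037 to 0.28, Slc2a2 from -0.31 to -0.055 and Slc2a8 from 0.12 to 0.28. Khk turned to -2.4e-05 with cyclic loess, -0.012 with median scaling, -0.042 as the mean of its probes, -0.055 with array weights and -0.0079 with the column code as a random block; without the 5 arrays of mixed tissue Tkfc gave 0.025 and Slc2a9 0.032. Leaving out 1 array gave -0.082 to 0.090 for Khk, -0.12 to 0.019 for Tkfc and -0.049 to 0.060 for Slc2a9. The causes of these turns were not tested. Over all features 0 passed with limma, and 1, Atg2a, without the detection filter. The fit with the replicate number as a block, possible only on the authors' values, called 0 features, as did the fit without it; with that block Glyctk differed by 0.23, Slc2a2 by -0.22 and Slc2a8 by 0.21, and no call changed. By Pearson's r, of 15 gene pairs, where 0 passed, 1 passed without SUC_424_02, 1 with cyclic loess, 1 without the 2 arrays farthest from the median (chosen per pair) and 2 without subtracting diet means. By Spearman's rho, where 1 passed, these counts were 1, 1, 1 and 3, and 0 without the 5 arrays of mixed tissue. Of 8 probe pairs, where 1 passed by r and 2 by rho, 2 and 4 did without SUC_424_02, and 2 and 2 without the 2 farthest arrays of each pair. Left-out arrays of mixed tissue and SUC_424_02 in the correlations were settings chosen after seeing the data. Sord gave no value under any alternative. Slc2a5 entered only the fit without the detection filter, where it did not pass and its difference is not given here. Signals near the offset of 16, as of the dimmest Glyctk and Slc2a9 probes, understate any difference in RNA.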
